A study of Mus musculus with 6 samples.

Results

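A tandem 3' splice site is a pair of acceptors a few bases apart at the end of the same intron, either of which can be joined to the same donor. The set described here holds 740 such pairs in 665 genes, taken from the 26910 local splicing variations (LSVs) measured on both diets in mouse hepatocytes. An LSV is a reference exon with all junctions that leave or enter it. A pair was kept when the LSV had exactly 2 junctions and no retained intron, was marked as an alternative 3' site only, and had acceptors 1 to 12 nt apart. Of the 740 pairs, 9 repeat a pair listed under an overlapping gene, which leaves 731 distinct pairs. In 56 genes there were 2 pairs, and 9 genes held 3 or more.

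The cells were hepatocytes from livers of male C57BL/6J mice. The HFD group received a high-fat diet with 60% fat, and the LFD group a low-fat diet with 10% of kcal from fat. The diets began at 8 weeks of age, after chow with 13.5% fat in both groups, and lasted 12 weeks. Each diet has 3 libraries of stranded mRNA, read as paired ends over 100 cycles, and the labels do not say whether each came from a separate mouse.

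In most introns the branch point is followed by a stretch of pyrimidines and then by the AG at which the intron ends, and the second step of splicing usually takes the first AG downstream. The base just before the AG matters in known introns: cytosine and thymine are favoured, adenine less so and guanine rarely. Where a second AG follows within a few bases both can be used, and a pair in coding sequence then adds or removes amino acids, or shifts the reading frame when the distance is not a multiple of 3.

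The authors' tables give, for each junction, PSI, the fraction of an LSV's reads that use the junction. The values below are PSI of the shorter junction, which ends at the acceptor nearer to the donor and keeps the extra bases in the mRNA. Each diet has 1 pooled value per junction, so no spread between animals exists, and the ± after a PSI is the authors' posterior SD, which covers reads only. No test over animals was therefore possible. A shift within hepatocytes and a shift in which cells were collected cannot be told apart in such pooled RNA. LSVs were present for 8 of 8 hepatocyte marker genes, 1 of 5 macrophage, 1 of 5 endothelial, 1 of 5 stellate cell and 0 of 4 bile duct markers; the tables hold no expression levels.

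Sequences of selected pairs 3 nt apart are given first, as examples of the bases before the acceptors. Each line gives the end of the intron and the start of the exon on the gene's strand, 5′ to 3′, in GRCm38 as read from GENCODE M21 transcripts, with both acceptor trinucleotides in capitals. The shorter junction joins after the first capital triplet, and the longer one after the second. Lines are ordered from pairs that used mostly the second acceptor to pairs that used mostly the first.
Plcg1 (chr2:160761724-160761747, plus strand): tcccttgctGAGCAGgagaacggt
Brd7 (chr8:88334208-88334231, minus strand): tttctattgAAGCAGattacacaa
Cp (chr3:19974847-19974870, plus strand): ctcatcctcAAGCAGcctcccatg
Acbd5 (chr2:23099550-23099573, plus strand): actctcttaAAGTAGggaatagaa
Usp10 (chr8:119941098-119941121, plus strand): atttcttctCAGCAGgacaggagc
Ankle2 (chr5:110237643-110237666, plus strand): gtctcttgaCAGCAGatggcttgt
Puf60 (chr15:76077691-76077714, minus strand): tcctgcctgCAGCAGgtcaatggc
Odc1 (chr12:17547271-17547294, plus strand): cccctgtttCAGAAGcacatcgag
Bap1 (chr14:31256649-31256672, plus strand): tgcctgcccCAGGAGgaggaagac
Sdha (chr13:74328404-74328427, minus strand): ctttcttttAAGGAGataaagttc

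Plcg1, a phospholipase that acts downstream of growth factor receptors, has a guanine before its first AG, and PSI of the shorter junction was 0.013 on HFD and 0.013 on LFD. Brd7, a bromodomain subunit of a chromatin remodelling complex, has an adenine there and gave 0.067 ± 0.022 on HFD and 0.10 ± 0.021 on LFD. Cp, the copper-carrying plasma protein ceruloplasmin, has the same bases before its acceptors as Brd7 and gave 0.233 ± 0.018 on HFD and 0.231 ± 0.020 on LFD. At all 3 the second acceptor, which follows a pyrimidine, took most reads on both diets.

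Acbd5, an acyl-CoA binding protein of peroxisomes, was near balance, with 0.608 ± 0.027 on HFD and 0.602 ± 0.026 on LFD. Usp10, a deubiquitinase with cytosine before both acceptors, gave 0.660 on HFD and 0.613 on LFD. Puf60, a factor that helps to recognise 3' splice sites, also has cytosine before both and gave 0.953 ± 0.026 on HFD and 0.944 ± 0.025 on LFD. Odc1, the first enzyme of polyamine synthesis, with adenine before its second AG, gave 0.987 on HFD and 0.961 on LFD. With guanine before the second AG, the deubiquitinase Bap1 gave 0.973 on HFD and 0.987 on LFD. Sdha, a subunit of succinate dehydrogenase, gave 0.987 on both diets. The use of the first acceptor thus ran from almost none to almost all over these 10 pairs. The more used acceptor was the same on both diets at all 10, and at 9 of them the diets differed by under 0.05. Ankle2 differed more and is described with the diet comparison. The 10 pairs are selected examples. Plcg1 and Sdha stood near the lowest or highest PSI given, 0.0125 and 0.9875, on both diets, which leaves little room for a difference.

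Distance between the acceptors was uneven. Pairs 3 nt apart numbered 301 of 740, or 40.7% (exact 95% binomial interval 37.1% to 44.3%, over sites, which are not replicates). Pairs 4 nt apart came next with 133, then 94 at 5 nt, 58 at 6 nt and 30 at 2 nt. There were 25 at 7 nt, 21 at 8 nt, 26 at 9 nt, 12 at 10 nt, 11 at 11 nt, 22 at 12 nt and 7 at 1 nt. The distance was a multiple of 3 for 407 pairs and not for 333. By GENCODE M21, 695 pairs lay in coding sequence, 23 in a 5' UTR, 6 in a 3' UTR and 2 in genes without a coding transcript there, while 14 pairs had neither junction in that annotation. Among coding pairs, 308 had a distance that shifts the frame. The intron was 944 nt long at the median, against 809 nt for alternative 3' sites over 12 nt apart, and 1 pair, in Nadk2, spans only 1 base and is no usual intron.

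**Figure D1:**
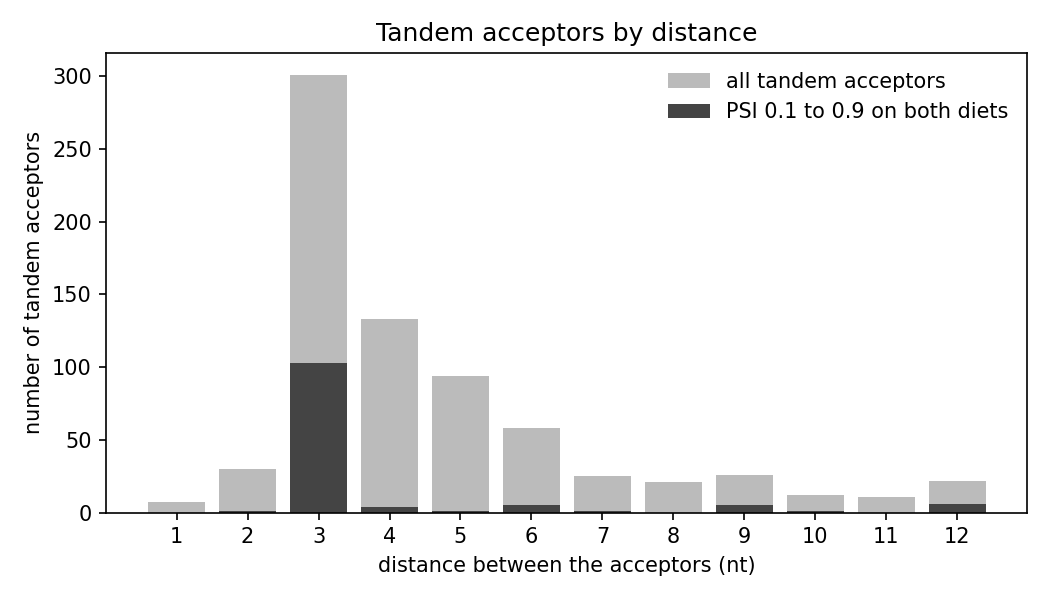
Number of tandem acceptors (y axis) at each distance from 1 to 12 nt (x axis). Light bars count all 740 pairs and dark bars, drawn over them, the 127 pairs with PSI of the shorter junction from 0.1 to 0.9 on both diets; 103 of the 127 are 3 nt apart, against 4 at 4 nt.

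The nearer acceptor was the more used one at most pairs. PSI of the shorter junction was over 0.5 at 628 pairs (84.9%) on HFD and 626 (84.6%) on LFD, and its median was 0.982 on HFD and 0.978 on LFD. It was over 0.9 at 530 pairs on HFD and 526 on LFD, and under 0.1 at 61 pairs on each diet. The tables run from 0.0125 to 0.9875, and 153 pairs stood at the upper limit on both diets and 7 at the lower limit, within 0.0001. Among 1135 alternative 3' sites over 12 nt apart, the median was 0.603 on HFD and 0.609 on LFD, and 50.7% on HFD and 50.4% on LFD used mostly the shorter junction.

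The values on either side of the 12 nt limit differed in level. The 45 pairs 10 to 12 nt apart had a median of 0.912 on HFD and 0.971 on LFD. Pair by pair, HFD minus LFD in these 45 had a median of -7.0e-11 and quartiles of -0.0038 and 0.0042. The 55 sites 13 to 15 nt apart, which are outside the set, had 0.0197 on HFD and 0.0278 on LFD. The nearer acceptor was the majority choice at 29 of the 45 on each diet, and at 16 of the 55 on HFD and 15 of the 55 on LFD.

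Pairs with appreciable use of both acceptors were mostly 3 nt apart. PSI lay from 0.1 to 0.9 on both diets, here called mixed use, at 127 of the 740 pairs (17.2%), and 103 of these 127 (81.1%) were 3 nt apart. They made up 34.2% of the 301 pairs at 3 nt, 15.1% of the 106 pairs at 6, 9 or 12 nt and 2.40% of the 333 pairs at other distances. For sites over 12 nt apart the share was 4.93%, and for all 13831 LSVs with 2 junctions it was 7.30%. At 3 nt the median was 0.912 on HFD and 0.909 on LFD, with a lower quartile of 0.608 on HFD and 0.573 on LFD. At 4 nt the median was 0.987 on both diets, and the first acceptor took most reads at 130 of 133 pairs on each.

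Mixed use at a distance that is no multiple of 3 was found at 8 pairs. Mapk9, the stress kinase also known as JNK2, has acceptors 5 nt apart and gave 0.320 ± 0.035 on HFD and 0.309 ± 0.031 on LFD. Acy1, an aminoacylase, at 4 nt, gave 0.515 ± 0.054 on HFD and 0.559 ± 0.045 on LFD. Zfyve1, a lipid-droplet and endoplasmic reticulum protein, at 4 nt, gave 0.734 on HFD and 0.746 on LFD.

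St6galnac6, a sialyltransferase, at 4 nt, gave 0.819 on HFD and 0.876 on LFD, and Fam20a, a secretory-pathway pseudokinase, at 4 nt, 0.864 on HFD and 0.876 on LFD. Tyms, thymidylate synthase, at 10 nt, gave 0.121 on HFD and 0.110 on LFD. Sec16b, which organises exit sites of the endoplasmic reticulum, at 7 nt, gave 0.174 ± 0.028 on HFD and 0.118 ± 0.023 on LFD. Nr2c2ap, at 2 nt, gave 0.654 ± 0.046 on HFD and 0.755 ± 0.035 on LFD. At each of the 8 the difference between diets was within its 95% posterior range (normal approximation, from the posterior variances).

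At 6, 9 and 12 nt, 16 pairs had mixed use. The nuclear envelope protein Sun2, at 6 nt, gave 0.638 ± 0.043 on HFD and 0.627 ± 0.034 on LFD. Shmt2, a mitochondrial enzyme of folate metabolism, at 9 nt, gave 0.792 ± 0.024 on HFD and 0.769 ± 0.024 on LFD. Smarca4, the ATPase of a chromatin remodeller, at 9 nt, gave 0.337 on HFD and 0.407 on LFD. Ptpn11, a phosphatase of growth factor signalling, at 12 nt, gave 0.398 on HFD and 0.332 on LFD. Differences at these 4 pairs were within their 95% posterior ranges. Ftsj1 (6 nt) and Rxrb (12 nt), described with the diet comparison, also belong to the 16. Their differences of 0.161 and -0.146 were outside that range. Of the 16 pairs, 8 differed by under 0.05.

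The annotation held the shorter junction more often than the longer one. GENCODE M21 has both junctions for 266 pairs, the shorter one alone for 430, the longer one alone for 30 and neither for 14. Both junctions belong to protein-coding transcripts at 174 pairs, and the distance is a multiple of 3 at 156 of these and not at 18. At the 228 pairs 3 nt apart where all coding transcripts gave 1 reading phase, 105 split a codon after its first base, 93 lay between codons and 30 after the second base. Among the 266 pairs with both junctions annotated, 131 (49.2%) were 3 nt apart, and the first acceptor took most reads at 72.2% on HFD and 71.8% on LFD.

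Use of the first acceptor at 3 nt varied with the base before the second AG, which the annotated transcripts give for 281 of 301 pairs. All 281 second triplets end in AG. With cytosine (122 pairs) the median PSI of the shorter junction was 0.828 on HFD and 0.793 on LFD, and with thymine (30 pairs) it was 0.825 on HFD and 0.808 on LFD. With adenine (90 pairs) it was 0.982 on HFD and 0.981 on LFD, and with guanine (39 pairs) 0.987 on both diets. The second acceptor was thus used more where a pyrimidine precedes it. No test was made, since sites are not replicates.

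Mixed use was also more frequent with a pyrimidine there. PSI lay from 0.1 to 0.9 on both diets at 65 of the 122 cytosine pairs, 14 of the 30 thymine pairs, 13 of the 90 adenine pairs and 2 of the 39 guanine pairs. The 2 guanine pairs are in Uchl5, a proteasome-bound deubiquitinase, with 0.438 ± 0.041 on HFD and 0.470 ± 0.034 on LFD, and in the inositol phosphate kinase gene Ppip5k2, with 0.864 ± 0.046 on HFD and 0.891 ± 0.027 on LFD. These bases could be read only where the shorter junction is annotated. With both junctions in GENCODE M21 the medians on HFD were 0.634 for cytosine (82 pairs), 0.569 for thymine (20), 0.978 for adenine (20) and 0.987 for guanine (9).

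**Figure D2:**
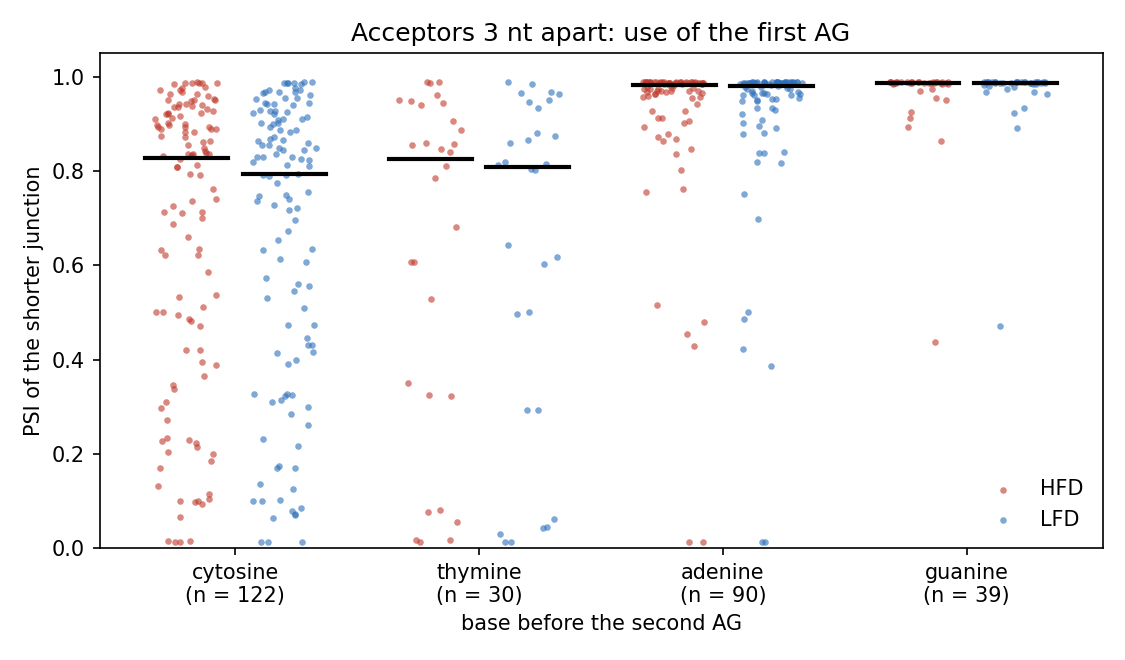
PSI of the shorter junction (y axis) of the 281 pairs 3 nt apart with a known base before the second AG (x axis), HFD in red to the left of LFD in blue. Each point is 1 pair, and black bars are medians: on HFD 0.828, 0.825, 0.982 and 0.987 for cytosine, thymine, adenine and guanine, and on LFD 0.793, 0.808, 0.981 and 0.987.

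The base before the first AG was known for fewer pairs, because another transcript's exon has to cover it. Of 48 pairs 3 nt apart with those bases, 47 had AG there, and 44 had the base before both AGs. In the 16 pairs with a pyrimidine before the first AG and a purine before the second, all 16 used mostly the first on both diets, with a lowest PSI of 0.836 on HFD and 0.837 on LFD, both in Rnf10. In the 5 pairs with a purine first and a pyrimidine second, the median was 0.067 on HFD and 0.10 on LFD, and the highest was Acbd5. In the 19 pairs with pyrimidines before both, the median was 0.856 on HFD and 0.844 on LFD, and 10 of the 19 had mixed use. Values in this group ran from 0.099 to 0.987 on HFD and from 0.071 to 0.984 on LFD. The lowest was Nolc1, which has cytosine before both AGs, as Puf60 does, so these bases alone did not fix the value.

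The 3 pairs with guanine before the first AG, Plcg1, Spag9 and Exosc2, had PSI of at most 0.031 on either diet. In Exosc2, a subunit of the RNA exosome, it was 0.017 on HFD and 0.031 on LFD. Spag9, a scaffold of stress kinases, gave 0.013 on both diets. Spag9 is also 1 of the 4 pairs with a purine before both AGs. The other pairs of that group, with adenine first and guanine second, used almost only the first acceptor: Sdha, Nap1l1 and Tarbp2 gave 0.987 on HFD, with 0.987, 0.973 and 0.967 on LFD.

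Most pairs had nearly the same PSI on both diets. The difference, HFD minus LFD, had a median of 0 over the 740 pairs, quartiles of -0.0059 and 0.0109 and a range from -0.201 to 0.191. It was under 0.05 in size at 647 pairs. Across pairs, which share the pooled libraries and the limits of the scale, Pearson's r between diets was 0.992 (n = 740), and 0.967 over the 127 pairs with mixed use. At those 127 the median size of the difference was 0.031, while the median posterior SD of a difference was 0.0501. The corresponding median size was 0.0471 for the 56 sites over 12 nt apart with mixed use and 0.0363 for all 1010 such LSVs with 2 junctions.

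Precision was lower on HFD. At the 127 pairs with mixed use, the median posterior SD was 0.0373 on HFD and 0.0319 on LFD, and it was larger on HFD at 112 of them. The number of effective reads, those that would give a binomial share of the same variance, had a median of 133 on HFD and 183 on LFD, with ranges of 51.8 to 569 on HFD and 83.2 to 477 on LFD.

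**Figure D3:**
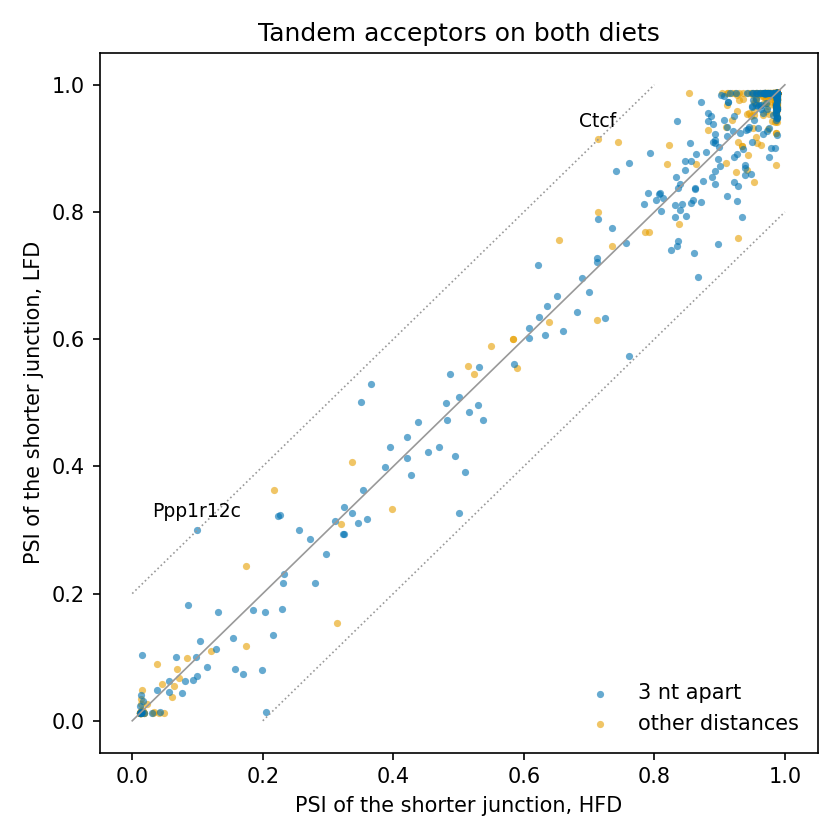
PSI of the shorter junction on HFD (x axis) and LFD (y axis) for the 740 pairs, with pairs 3 nt apart in blue and others in orange. The solid line marks equal values and the dotted lines a difference of 0.2; only Ctcf and Ppp1r12c lie past a dotted line, both lower on HFD.

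For a call, the difference had to reach 0.2 in size and lie outside its 95% posterior range. That was met at 2 of 740 pairs (0.27%), against 0.275% of all LSVs with 2 junctions. The share was 0.529% for alternative 3' sites over 12 nt apart and 0.511% for simple alternative 5' sites. Among all LSVs it was 0.624%, where, here and below, an LSV counts when any of its junctions met the rule. That share is therefore not like for like with the others. Both called pairs were lower on HFD (0.27%), and 0 pairs were higher (0.0%), against 0.166% lower and 0.108% higher among LSVs with 2 junctions. The share among tandem acceptors was thus near that of LSVs with 2 junctions. The 2 genes were Ctcf and Ppp1r12c.

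Ctcf, the zinc-finger protein that binds insulators and anchors chromatin loops, gave 0.713 ± 0.046 on HFD and 0.914 ± 0.027 on LFD, a difference of -0.201 ± 0.053. Its acceptors are 6 nt apart in coding sequence, and GENCODE M21 has the shorter junction in 2 transcripts and the longer one in 0. Ppp1r12c, a regulatory subunit of myosin phosphatase, has acceptors 3 nt apart and gave 0.099 ± 0.036 on HFD and 0.30 ± 0.047 on LFD, a difference of -0.201 ± 0.059. In both the longer junction, which leaves the extra bases out, took a larger share on HFD. Both differences lie at the edge of the threshold.

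With a threshold of 0.1, 26 pairs were called (3.51%), against 1.92% of all LSVs with 2 junctions and 4.17% of all LSVs. On HFD 14 were higher (1.89%) and 12 lower (1.62%), against 0.904% higher and 1.02% lower among LSVs with 2 junctions. Of the 26, 18 were 3 nt apart (5.98% of pairs at that distance), 6 were at 6, 9 or 12 nt and 2 at distances that are no multiple of 3. Over pairs with mixed use on both diets, 13 of 127 were called (10.2%), against 10.6% of the 1010 such LSVs with 2 junctions. Of the 26 calls, this range on both diets leaves out 13, Ctcf and Ppp1r12c among them. With a threshold of 0.05, 56 pairs were called (7.57%), against 5.1% of LSVs with 2 junctions and 9.87% of all LSVs. On HFD 26 were higher (3.51%) and 30 lower (4.05%), against 2.51% higher and 2.6% lower among LSVs with 2 junctions.

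The mRNA sequences around the widest differences follow, in spliced form for the shorter junction: the end of the upstream exon, the extra bases in capitals, and the exon after them. The longer junction gives the same mRNA without the capitals. Coordinates are those of the extra bases in GRCm38.
Ctcf (chr8:105681435-105681440, plus strand): aacagaaccagcCAACAGccatcattcagg
Ppp1r12c (chr7:4483186-4483188, minus strand): ctgcccagagagCAGaggcgcccgaag
Tapbp (chr17:33926627-33926629, plus strand): taggctggctggTAGctgcctactgga
Rxrb (chr17:34036861-34036872, plus strand): ctttgatcgGTCCCTCTCCAGggtgctgac
Wdtc1 (chr4:133301825-133301827, minus strand): gccactccgtggAAGtccagaacggca
Aagab (chr9:63636384-63636386, plus strand): tgtcactctgagCAGcaggagccgtcg
Rasgef1b (chr5:99234689-99234691, minus strand): agtggcgaggagCAGacgtaccggaag
Arih2 (chr9:108644366-108644368, minus strand): taaacattacagAAGacaatacacgct
Phf10 (chr17:14956062-14956067, minus strand): ggaaatatccagATTTAGagcgacgagatt
Ftsj1 (chrX:8245650-8245655, minus strand): accactcatatgATACAGatttcaaccagt
Cast (chr13:74704203-74704205, minus strand): cctggcactgagCAGaaagacaaagaa

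Among pairs measured with a posterior SD of at most 0.05 on both diets, the 7 widest falls were these 2 and 5 others. Tapbp, tapasin of the peptide loading complex of MHC class I, gave 0.351 ± 0.042 on HFD and 0.501 ± 0.037 on LFD. Rxrb, the retinoid X receptor beta that pairs with other nuclear receptors, has acceptors 12 nt apart and gave 0.217 ± 0.042 on HFD and 0.363 ± 0.035 on LFD. A 12 nt pair of 4930597O21Rik, with neither junction in GENCODE M21, gave 0.745 ± 0.048 on HFD and 0.910 ± 0.029 on LFD.

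Ncor1, a corepressor of nuclear receptors, gave 0.741 ± 0.043 on HFD and 0.864 ± 0.025 on LFD at 1 of its pairs. Wdtc1, a WD-repeat protein linked to fat storage in flies and mice, gave 0.761 ± 0.030 on HFD and 0.877 ± 0.019 on LFD. All of these lie in coding sequence save 4930597O21Rik, and at each the difference was outside its 95% posterior range but under 0.2 in size.

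The 8 widest rises began with Aagab, which helps to assemble clathrin adaptor complexes, at 0.761 ± 0.049 on HFD and 0.573 ± 0.045 on LFD. Rasgef1b, an exchange factor of Ras-family proteins, gave 0.50 ± 0.049 on HFD and 0.327 ± 0.044 on LFD. Arih2, a ubiquitin ligase whose pair lies in the 5' UTR, gave 0.867 ± 0.035 on HFD and 0.698 ± 0.038 on LFD.

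Phf10, a subunit of a SWI/SNF chromatin remodeller, has acceptors 6 nt apart and gave 0.928 ± 0.029 on HFD and 0.759 ± 0.033 on LFD. Ftsj1, a tRNA methyltransferase, also at 6 nt, gave 0.314 ± 0.047 on HFD and 0.153 ± 0.032 on LFD. Cast, the calpain inhibitor calpastatin, gave 0.898 ± 0.023 on HFD and 0.749 ± 0.028 on LFD. In these 3 the first acceptor was used more on HFD, although at Ftsj1 the second kept the majority on both diets.

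Ankle2, a protein of nuclear envelope reassembly, gave 0.935 ± 0.034 on HFD and 0.792 ± 0.037 on LFD. Ttc27, a tetratricopeptide protein, gave 0.861 ± 0.041 on HFD and 0.736 ± 0.047 on LFD. The posterior SD on 1 diet was just over 0.05 at 3 wide differences, which are therefore outside these lists. Usp34, a deubiquitinase, gave 0.205 ± 0.050 on HFD and 0.013 on LFD, and Rnf44, a RING-finger protein, 0.366 ± 0.049 on HFD and 0.530 ± 0.052 on LFD. Wdr75, a factor of ribosome biogenesis with acceptors 4 nt apart, gave 0.853 ± 0.050 on HFD and 0.987 ± 0.004 on LFD.

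**Figure D4:**
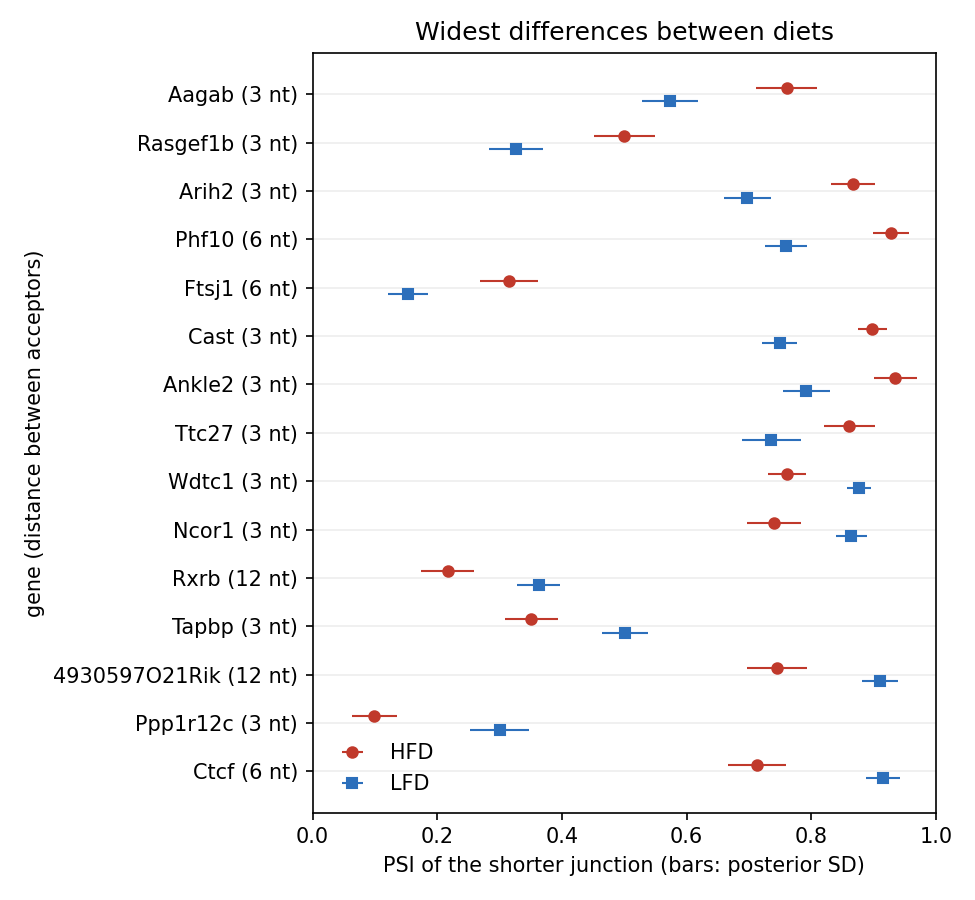
PSI of the shorter junction (x axis) on HFD (red circles, drawn above) and LFD (blue squares) for the 8 widest rises and 7 widest falls among pairs with a posterior SD of at most 0.05 on both diets (y axis: gene, with the distance between acceptors). Bars are posterior SDs, which cover reads only; Ctcf and Ppp1r12c, at the bottom, are the widest falls, with 0.713 and 0.099 on HFD against 0.914 and 0.30 on LFD.

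By the PSI values alone, the more used acceptor differed between diets at 8 pairs, all 3 nt apart, and in no pair at another distance. Besides Rnf44, Tapbp and Rasgef1b these included Scamp3, a secretory carrier membrane protein, with 0.511 ± 0.039 on HFD and 0.391 ± 0.035 on LFD, and Txnip, an arrestin-like inhibitor of glucose uptake, with 0.538 ± 0.028 on HFD and 0.473 ± 0.033 on LFD. Ppp3cb, a calcineurin catalytic subunit, gave 0.529 on HFD and 0.497 on LFD, and the exchange factor Kalrn 0.516 on HFD and 0.485 on LFD. At Txnip, Ppp3cb and Kalrn the difference was within its 95% posterior range. At Rnf44, Tapbp, Rasgef1b, Scamp3, Txnip, Ppp3cb and Kalrn, PSI on a diet was closer to 0.5 than its posterior SD. The more used acceptor on that diet is therefore not settled.

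The best measured balanced pairs differed little between diets. Eif4g1, the scaffold of translation initiation, gave 0.337 ± 0.029 on HFD and 0.327 ± 0.028 on LFD. Nudt4, a phosphohydrolase of inositol pyrophosphates, gave 0.325 ± 0.029 on HFD and 0.336 ± 0.025 on LFD. H2afy, a macro-domain histone variant, gave 0.428 ± 0.032 on HFD and 0.387 ± 0.028 on LFD.

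Nars, asparaginyl-tRNA synthetase, gave 0.633 ± 0.029 on HFD and 0.607 ± 0.029 on LFD, and Gm16332 gave 0.360 ± 0.029 on HFD and 0.318 ± 0.028 on LFD. With Acbd5 these are the 6 pairs 3 nt apart with PSI from 0.3 to 0.7 on both diets and the smallest posterior variance. Their differences, from -0.011 at Nudt4 to 0.042 at Gm16332, were each within the 95% posterior range.

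Some genes held several pairs, whose values could differ. Ncor1 holds 3 pairs, all 3 nt apart. Beside the fall given above, another pair gave 0.725 ± 0.037 on HFD and 0.633 ± 0.038 on LFD, and the last 0.224 ± 0.047 on HFD and 0.322 ± 0.042 on LFD, both within the 95% posterior range of a difference. Rnf10, a RING-finger protein, used mostly the first acceptor at 1 pair, with 0.836 on HFD and 0.837 on LFD, and mostly the second at another, with 0.104 on HFD and 0.125 on LFD. Huwe1, a large ubiquitin ligase, gave 0.987 ± 0.004 on HFD and 0.874 ± 0.029 on LFD at a 6 nt pair, while its 3 nt pairs were at 0.966 or above on both diets. Cdk11b held the most pairs, 4, all with PSI of at least 0.910 on both diets.

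Tandem acceptors in lists of genes of liver function were few. Mixed use, given below for some lists, is to be read beside its share of 17.2% over all tandem pairs. At a threshold of 0.05, 7.57% of all tandem pairs were called, and 0 of the pairs in most lists is near that share for lists of this size, so the counts below tell nothing particular about a list. In a list of 72 genes of lipid metabolism, 62 had an LSV and 11 held 12 pairs, and 0 of the 12 were called at 0.05, with a median difference of 0.0045 and mixed use at 1. Plin5, a coat protein of lipid droplets, gave 0.967 ± 0.013 on HFD and 0.922 ± 0.015 on LFD. Cd36, a fatty acid transporter with its pair in the 5' UTR, gave 0.856 ± 0.025 on HFD and 0.814 ± 0.029 on LFD. The difference at Plin5 was outside its 95% posterior range but under 0.05, and that at Cd36 was within its range.

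For glucose and insulin, 38 of 50 listed genes had an LSV and 6 held 6 pairs, with 0 called and differences from -0.030 to 0.036. Insr, the insulin receptor, gave 0.840 ± 0.037 on HFD and 0.803 ± 0.034 on LFD. Mitochondrial genes (40 of 43 with an LSV) held 7 pairs, 0 called, all at the table's upper or lower limit or within 0.0005 of it on both diets, where the scale itself limits differences. Secreted liver proteins (45 of 47) held 15 pairs, 0 called, with differences from -0.017 to 0.0025; most stood at the table's limit, and Cp and Cfi, a complement protease with 0.803 ± 0.019 on HFD and 0.820 ± 0.018 on LFD, were the mixed ones.

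Genes of xenobiotic metabolism (34 of 37) held 7 pairs with 0 called and mixed use at 1, Abcc3, an efflux transporter, at 0.635 ± 0.032 on HFD and 0.653 ± 0.032 on LFD. Stress and inflammation genes (29 of 40) held 9 pairs, and 1 was called at 0.05, against 7.57% of all tandem pairs: Il6ra, the interleukin receptor subunit, at a 5 nt pair with 0.987 ± 0.003 on HFD and 0.924 ± 0.020 on LFD. Of 6 genes listed as known from textbooks for tandem acceptors, 3 had an LSV and 0 held a pair of this set.

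Factors that choose splice sites also contain such pairs. The list of 34 factors acting at the 3' splice site had 20 genes with an LSV and 4 pairs, in Puf60, Sf3b2, Dhx15 and Rbm5, with 0 called at 0.05, against 7.57% of all tandem pairs, and differences from -0.0394 to 0.0095. Sf3b2, a subunit of the complex that binds the branch point, gave 0.906 ± 0.033 on HFD and 0.945 ± 0.020 on LFD. The list of 51 other splicing factors had 48 genes with an LSV and 10 pairs, again with 0 called, a count too small to set apart from that share, and 7 of the 10 had mixed use.

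Tra2b, an activator of exon inclusion, gave 0.872 ± 0.026 on HFD and 0.816 ± 0.028 on LFD. Srsf11, an SR-related protein, gave 0.842 ± 0.021 on HFD and 0.812 ± 0.022 on LFD. Celf1, an RNA-binding regulator, held a 3 nt pair with 0.345 ± 0.036 on HFD and 0.311 ± 0.031 on LFD and a 12 nt pair with 0.838 ± 0.028 on HFD and 0.781 ± 0.028 on LFD. The differences at these pairs were within their 95% posterior ranges.

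The authors' own comparisons listed few of these pairs. None of the 124 LSVs in the authors' deposited table of PSI differences is a pair of this set, although 11 pairs lie in genes that the authors' deposited table names. Some of the 124 have more than 2 junctions, which this set leaves out, and hold acceptors at most 12 nt apart. There the authors' changes at the nearer and farther acceptor were 0.280 and -0.233 in Arntl (3 nt) and -0.067 and 0.237 in Safb (6 nt). In Nr1i3 (3 nt) they were -0.318 and -0.049, both falls, and in Stat2 (3 nt) 8.4e-07 and 0.243. The nearer Stat2 acceptor was almost unused, with PSI of 0.003 on HFD and 0.002 on LFD. With more than 2 junctions, a change at 1 acceptor need not be a shift between the tandem acceptors. The JUM program's A3SS section in the authors' deposited table lists 87 events, 9 with an adjusted p under 0.05 (10.3%), and 18 of the 87 hold acceptors at most 12 nt apart. Of these 18, 12 are 3 nt apart, and 1, in Gm21320, had an adjusted p under 0.05 by JUM but is no pair of this set. Pairs of this set number 4 of the 18, each with the same sign in the PSI tables. The 4 were listed in that table for an unadjusted p under 0.05, so their presence there is no separate support.

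For Cast the authors' deposited table gives a change of 0.148 with an adjusted p of 0.370, beside 0.149 ± 0.037 from the PSI tables. For Wdtc1 the authors' deposited table gives -0.128 with an adjusted p of 0.172, beside -0.116 ± 0.036. For Metap2, a methionine aminopeptidase, the authors' deposited table gives 0.0761 with an adjusted p of 0.273, beside 0.0879 ± 0.023, with PSI of 0.975 ± 0.014 on HFD and 0.887 ± 0.019 on LFD. For Txnip the authors' deposited table gives 0.0686 with an adjusted p of 0.368, beside 0.0649 ± 0.043. The sizes by both programs lay within 1 posterior SD of each other at these 4, and 0 of the 4 passed the adjusted p in the authors' deposited table.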

How the data were processed

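Per the submitters' processing notes, the tools were FastQC and STAR and the build mm10, with no version named. Voila, the viewer of MAJIQ, gave a table per diet, per the file headers, in which each cell lists the posterior mean and variance of PSI for all junctions of an LSV, with the 3 libraries of a diet pooled by the authors. A further deposited table lists the authors' PSI differences, and another holds JUM's events with p-values and adjusted p-values. The title line of the JUM table names NC, but the heading over its changes names HFD minus LFD and was followed. The depth per library is unknown.

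LSVs were matched by ID and junction coordinates, and the rule was applied in Python 3.11.15 with pandas 2.3.3. The SD of a difference is the root of the summed posterior variances. A call needs at least 0.2 and a difference outside its 95% normal range from that SD, and thresholds of 0.1 and 0.05 were alternatives. The call rule was run on simulated data with read noise only. Pairs near the limits of the scale and variation between animals were not simulated. Effective reads are PSI × (1 − PSI) / variance − 1. JUM pairs were matched to LSV junctions by coordinates, whose higher end differs by 2 bases between the tables. Annotation and sequences came from GENCODE M21 (GRCm38, the mm10 assembly), which holds 73.5% of the 45164 junctions in both tables. No genome was used, so bases upstream of the nearer acceptor were read only where a transcript covers them. Named pairs were those called, the 8 widest rises and falls with posterior SDs of at most 0.05, pairs in the authors' comparison tables, the 6 best measured balanced pairs at 3 nt, the best measured mixed pair per other distance, and pairs in the gene lists. A few pairs named by this rule are not reported here. Others were chosen after their values were seen. Pairs and lists were chosen with earlier results of these data known.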

Additional observations from a re-analysis of the deposited data

How the results depend on the processing

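The 2 calls depend on the threshold: 26 pairs were called at 0.1 and 56 at 0.05, while 2 were called with a 99% in place of a 95% posterior range. By subset, 1 call was found among the 301 pairs 3 nt apart (0.332%) and 1 among the 266 with both junctions in GENCODE M21. That call was Ppp1r12c in both. Of the 127 pairs with PSI from 0.1 to 0.9 on both diets, 0 were called, against 1.68% of such LSVs with 2 junctions. That range by itself leaves out both calls, Ctcf at 0.914 on LFD and Ppp1r12c at 0.099 on HFD. Pairs that used mostly the shorter junction made up 71.6% on HFD and 71.1% on LFD with a majority set at PSI over 0.9, and 72.2% on HFD and 71.8% on LFD with both junctions annotated. The share at 3 nt was then 49.2%. The subsets by annotation and by mixed use were chosen after seeing the data. With both junctions annotated, the medians on HFD for cytosine and thymine before the second AG were 0.634 and 0.569, against 0.828 and 0.825 over all pairs read. By its form the rule can only gain calls at a lower threshold, so the calls added at the named pairs are no check on them. The filter on de novo junctions removed 0 pairs, since none carries that mark, and was therefore no check. GENCODE M21 holds the shorter junction alone at 430 pairs. No paired analysis was possible because each diet has 1 pooled value per junction, and for the same reason no library could be left out. Posterior SDs cover reads only, so how far any difference exceeds variation between animals was not tested.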
